A study of Drosophila melanogaster with 51 samples.

Results

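The nuclear tRNA genes of Drosophila melanogaster were examined for open chromatin at their starts in Kc167 cells. They were taken as every gene with the biotype tRNA on the 7 arms (X, Y, 2L, 2R, 3L, 3R and 4) in the Ensembl BDGP6 annotation, which gave 290 of 18277 annotated genes other than transposable elements, and none of them lay on arms 4 or Y. The 290 genes carried 84 distinct mature sequences in 45 anticodon classes, and 252 of them had at least 1 copy with an identical mature sequence. A gene was open when a region called open in basal Kc167 cells overlapped the window of 250 bp on either side of its annotated start by at least 1 bp, and closed otherwise. By this rule 218 tRNA genes were open (75.2%, 95% Wilson interval 69.9 to 79.8). The share was 41.0% in all annotated genes and 47.8% in protein-coding genes. Other genes counted as open when any of their annotated starts met the rule, so a gene with several starts had several windows. The share was 7.84% in consecutive tiles of the width of these windows over the 7 arms.

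Open chromatin was mapped by ATAC-seq, an assay where a transposase inserts sequencing adapters into DNA that it can reach. Basal Kc167 cells are an embryonic line with features of hemocytes, the blood cells of the fly; they carried no inducible construct and received no copper, and they gave 3 of the 51 libraries in the study. The other 48 libraries, from stable lines with copper-inducible Hox proteins, the Hox cofactor Hth, the hemocyte factor Gcm or combinations of them, were not analysed here. The deposited list joined the 3 basal libraries into 1 set of 16118 regions without heights or read numbers, so no value below has a replicate error, the list leaves the depth of each region unknown, and each interval covers counting error only. Of 10 hemocyte markers 7 were open (39.7 to 89.2%), among them serpent (srp), u-shaped (ush), Hemolectin (Hml) and Peroxidasin (Pxn), whereas NimC1, He and Sr-CI were closed. Of 7 neuron, muscle and fat body markers only elav was open (2.57 to 51.3%). Both intervals included the 47.8% of protein-coding genes, so these counts are a weak check of the cell type.

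tRNA genes are transcribed by RNA polymerase III. Their promoter lies inside the transcribed sequence, as an A box near the start and a B box further in, which are bound by TFIIIC. TFIIIC in turn places TFIIIB, with its Brf and Bdp1 subunits, on the DNA just before the gene, and a run of T after the gene ends transcription. Because a cell needs many tRNA molecules, each kind is encoded by several genes, often of identical sequence and scattered over the genome.

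Identical sequence did not come with an identical state. The mature sequences of 4 kinds of tRNA are given here to show the range, with all, some or none of the copies open. The capitals mark the 7 letters of the B box, taken as the best match to GGTTCGA in the last 30 bases of the mature sequence. These sequences and the flanked genes after them were read from the Release 6 (dm6) genome, 5′ to 3′ on the strand of the gene, and were picked after their states were seen. For sequences with several copies, the position is that of the first copy.
tRNA:Asp-GTC-1 (12 of 12 copies open, chr2L:5241106-5241177): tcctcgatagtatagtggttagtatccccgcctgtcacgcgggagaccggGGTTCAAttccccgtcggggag
tRNA:Ala-AGC-2 (6 of 11 copies open, chr3L:8028546-8028618): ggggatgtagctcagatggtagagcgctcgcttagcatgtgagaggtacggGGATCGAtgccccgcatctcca
tRNA:Ser-GCT-2 (2 of 5 copies open, chr3R:10278054-10278135): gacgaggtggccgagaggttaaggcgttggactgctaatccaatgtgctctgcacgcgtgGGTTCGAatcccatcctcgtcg
tRNA:Arg-TCG-3 (0 of 4 copies open, chrX:14016203-14016275): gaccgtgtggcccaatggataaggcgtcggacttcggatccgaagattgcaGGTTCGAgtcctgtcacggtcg
The aspartate tRNA, all of whose genes were open by the window rule, departed from the B box letters at 1 position. So did the alanine tRNA with both states. At the printed position of the aspartate tRNA, the region reached the window but covered no base of the gene. The serine and arginine tRNAs, which were mostly or wholly closed, held all 7 letters. These 4 picked sequences run against the whole set, where genes with an exact B box had the highest share open, 78.6%, with intervals that overlapped those of genes with mismatches. The windows of the 4 Arg-TCG-3 genes were also only 12.6 to 49.3% unique in 50-base sequences when up to 2 mismatches were allowed.

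The genes for cysteine tRNA, all 7 of which lie on arm 3L, showed the same for near-identical sequences. The 4 forms are printed with the B box in capitals.
tRNA:Cys-GCA-1 (3 of 4 copies open, chr3L:3095737-3095808): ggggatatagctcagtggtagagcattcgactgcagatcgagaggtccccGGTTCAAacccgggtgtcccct
tRNA:Cys-GCA-2 (closed, chr3L:1925641-1925712): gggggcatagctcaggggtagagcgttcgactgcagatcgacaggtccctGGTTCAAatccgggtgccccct
tRNA:Cys-GCA-3 (open, chr3L:2273744-2273815): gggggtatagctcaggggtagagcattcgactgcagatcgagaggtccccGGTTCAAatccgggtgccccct
tRNA:Cys-GCA-4 (closed, chr3L:21854094-21854165): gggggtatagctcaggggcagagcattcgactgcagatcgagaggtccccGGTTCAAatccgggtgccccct
The open tRNA:Cys-GCA-3-1 and the closed tRNA:Cys-GCA-4-1 differed by 1 base in the gene, T19C counted from the 5′ end with the base of Cys-GCA-3 first. The region at tRNA:Cys-GCA-3-1 was 313 bp wide with its midpoint 76 bp before the gene start. Both genes stood alone, with no other tRNA gene within 5 kb and no other region with its midpoint 1 to 10 kb away.

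The flanks, which differ between copies, are shown for an open and a closed copy of the alanine and serine genes, with 40 bases before and 20 after the gene. Here the capitals mark the gene, which is the same in each pair.
tRNA:Ala-AGC-2-8 (open, chr3R:17646663-17646795): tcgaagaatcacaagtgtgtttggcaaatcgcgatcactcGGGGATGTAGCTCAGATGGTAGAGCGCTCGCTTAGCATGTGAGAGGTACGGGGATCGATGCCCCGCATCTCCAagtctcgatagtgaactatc
tRNA:Ala-AGC-2-10 (closed, chr3R:17668147-17668279): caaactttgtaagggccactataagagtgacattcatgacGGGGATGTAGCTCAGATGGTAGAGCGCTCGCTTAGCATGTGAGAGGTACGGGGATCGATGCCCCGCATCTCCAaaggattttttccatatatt
tRNA:Ser-GCT-2-4 (open, chr3R:22396779-22396920): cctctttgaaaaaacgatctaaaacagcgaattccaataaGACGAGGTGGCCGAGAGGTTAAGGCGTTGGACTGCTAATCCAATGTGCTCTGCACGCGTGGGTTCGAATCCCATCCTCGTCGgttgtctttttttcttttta
tRNA:Ser-GCT-2-2 (closed, chr3R:14044505-14044646): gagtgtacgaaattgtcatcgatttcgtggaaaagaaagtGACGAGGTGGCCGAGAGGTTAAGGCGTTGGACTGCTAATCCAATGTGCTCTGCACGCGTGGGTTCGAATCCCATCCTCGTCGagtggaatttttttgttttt
At tRNA:Ala-AGC-2-8 a region of 300 bp had its midpoint 4 bp before the gene start. At tRNA:Ser-GCT-2-4 a region of 943 bp also reached tRNA:Ser-GCT-1-1 and tRNA:Ser-GCT-2-5, whose starts were within 1 kb of it. The closed tRNA:Ala-AGC-2-10 lay inside the protein-coding gene CG14322, and the closed tRNA:Ser-GCT-2-2 lay in no protein-coding gene.

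Over the whole genome the open regions at tRNA genes mostly covered the gene start, and their midpoints lay more often before it than after it. Some closeness follows from the window of 250 bp that defined an open gene. A region covered the gene start itself in 203 of the 218 open genes, all bases of the gene in 173 and no base of it in 15. The midpoint of the widest region at each open gene lay a median of 27.5 bp before the start (quartiles 111.5 bp before to 35.8 bp after). It lay before the start in 131 of the 218 genes, within 100 bp of it in 119 and within 50 bp in 84. Since neighbouring tRNA genes can share a region, 79 isolated genes, more than 1000 bp from any other tRNA gene and any protein-coding TSS, were looked at alone. Of these 48 were open, with a median midpoint 31 bp before the start (quartiles 64.2 bp before to 1 bp after). Among these 48 the midpoint lay within 100 bp of the start in 37 and within 50 bp in 26.

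**Figure D1:**
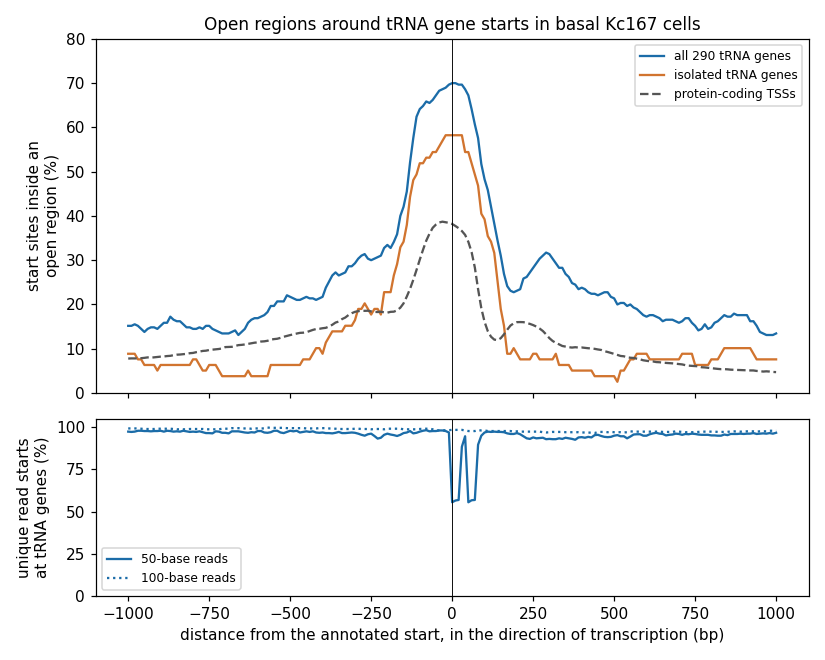
Upper panel: share of start sites (%) lying inside an open region at each distance (bp) from the start, in the direction of transcription, for all tRNA genes, isolated tRNA genes and protein-coding TSSs. Lower panel: share of read starts (%) that are unique in the genome for reads of 50 or 100 bases. The tRNA curve first reaches its maximum of 70% at 6 bp before the start and is as high at the start. The uniqueness of 50-base reads dips to 54.7% inside the gene.

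The coverage profile fell quickly on either side. It first reached its highest value, 70% of the 290 genes, 6 bp before the start, and was also 70% at the start and 10 bp after it. The profile stayed above 50% of that height from 172 bp before to 133 bp after the start. At 1000 bp before and after the start, 15.2% and 13.4% of tRNA genes lay within a region. Isolated tRNA genes had 8.86% and 7.59% at those distances. Their highest share, 58.2%, was first reached 29 bp before the start and was the same at the start and 30 bp after it. Protein-coding TSSs, by contrast, reached 38.7% at 30 bp before the start. The tRNA gene body is also where short reads are least unique: at 49 bp after the start only 54.7% of 50-base read starts occurred once in the genome, against 97.9% at 500 bp before it. With reads of 100 bases the lowest value within 1000 bp was 96.6%, and no read length is given in the sources used here.

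The openness was local to the gene. When the same windows were moved along the chromosome, 27.9% and 25.2% held a region at 1 kb before and after the gene, 18.6% and 19.3% at 2 kb, 11.7% and 14.5% at 5 kb, and 12.8% and 12.1% at 10 kb. Many of these moved windows met another tRNA gene or a protein-coding TSS. Among moved windows more than 500 bp from both, the share was 9.66% of 176 at 1 kb before and 9.19% of 185 at 1 kb after, and at 10 kb it was 7.14% of 238 before and 5.88% of 238 after. The 7.84% of the tiles is not a like measure, because the tiles also include those at protein-coding TSSs and tRNA genes.

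**Figure D2:**
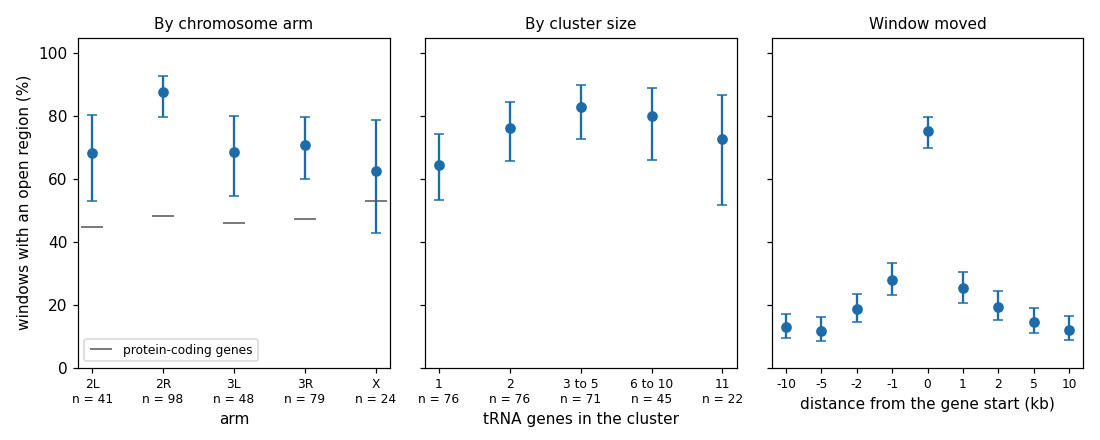
Share of windows with an open region (%) with 95% Wilson intervals for tRNA genes by chromosome arm (grey dashes, protein-coding genes of the same arm), for tRNA genes by the number of genes in their cluster, and for the tRNA windows moved by up to 10 kb. Arm 2R stands highest at 87.8%, single genes lowest among the cluster sizes at 64.5%, and the moved windows do not pass 27.9%.

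Regions at tRNA genes were few, mostly lay away from protein-coding TSSs, and were widest where they met several tRNA genes. A wider region is more likely to reach several windows, so the last point follows in part from the grouping. The 218 open genes were served by 184 distinct regions, which is 1.14% of the list. Only 20 of these also lay at a protein-coding TSS, while 8536 of all 16118 regions lay at one and at no tRNA gene. Few tRNA genes lie near such a TSS, since only 6 of the 290 had one within 250 bp of the start. In 174 open genes the window held 1 region, in 40 it held 2 and in 4 it held 3. Of the regions, 119 met 1 tRNA gene, 50 met 2, 13 met 3 and 2 met 4. Regions at a single tRNA gene and no protein-coding TSS had a median width of 278 bp (quartiles 202 to 346, 104 regions), and those at 2 or more tRNA genes 404 bp (243 to 574, 60 regions). Regions at a protein-coding TSS and no tRNA gene were narrower, with a median of 212 bp (163 to 322, 8536 regions), and the 7398 regions at neither had a median of 264 bp (184 to 409), close to that at a single tRNA gene. A width of at least 200 bp was reached by 75% of the regions at a single tRNA gene, against 56.0% of those at protein-coding TSSs and 69.2% of those at neither. At 500 bp or more the shares were 11.5% at a single tRNA gene and 31.7% at 2 or more, against 12.0% at protein-coding TSSs and 15.6% at neither. Width was the only measure of size that the list allowed.

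**Figure D3:**
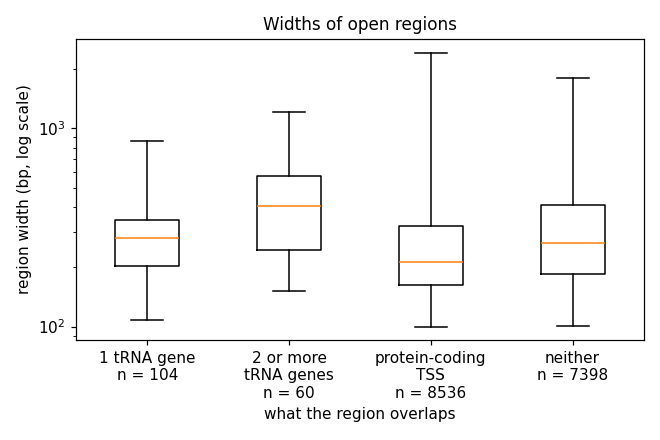
Width of open regions (bp, log scale) by what they overlap; lines are medians, boxes quartiles, and whiskers the narrowest and widest region. Regions at 1 tRNA gene have a median of 278 bp and those at 2 or more tRNA genes 404 bp, above the 212 bp of protein-coding TSSs. Wider regions are more likely to fall in the group of 2 or more.

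The 3 widest regions all met more than 1 tRNA gene, which is more likely for a wide region. The widest, 1205 bp, covered the glutamate gene tRNA:Glu-TTC-1-5 on arm 2R and reached the window of tRNA:Glu-TTC-1-4. A region of 1130 bp on arm 2L held the proline genes tRNA:Pro-AGG-1-2, tRNA:Pro-AGG-1-3 and tRNA:Pro-AGG-1-4, and a region of 1124 bp on X held tRNA:Arg-TCG-2-1, tRNA:Ser-CGA-1-1 and tRNA:Ser-CGA-1-2. At the other end, the region of 108 bp near tRNA:Ser-AGA-2-5 covered no base of the gene and had its midpoint 268 bp after the start. The region of 118 bp at tRNA:Pro-CGG-1-1 was centred 1 bp before the start and covered 58 bases of the gene, and that of 125 bp at tRNA:Ile-TAT-1-2 was centred 9 bp after it. The narrow regions of 158 bp at tRNA:Gly-GCC-1-9 and 160 bp at tRNA:His-GTG-1-4 lay 33 bp before and 323 bp after their starts. A narrow call thus marked a gene start in some genes and only reached the window in others.

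Every amino acid had at least 1 open gene. All 14 genes for aspartate tRNA were open (95% interval 78.5 to 100%), as were all 11 for isoleucine (74.1 to 100%), all 5 for histidine (56.6 to 100%) and the single gene for selenocysteine. Asparagine with 9 of 10, glutamate with 17 of 19 and proline with 15 of 17 followed. The lowest shares were those of elongator methionine, open in 3 of 6, tyrosine in 5 of 10 (23.7 to 76.3%), cysteine in 4 of 7, threonine in 10 of 17 (36 to 78.4%) and arginine in 16 of 26 (42.5 to 77.6%). Initiator methionine, which starts every protein, was open in 5 of 6 genes. Under the window rule, the interval of aspartate lay above those of tyrosine, threonine and arginine, and those of the other amino acids overlapped it. Some of these open calls came from a region that covered no base of the gene. For aspartate, histidine and arginine these were tRNA:Asp-GTC-1-1, tRNA:Asp-GTC-1-5, tRNA:Asp-GTC-1-11, tRNA:His-GTG-1-2, tRNA:His-GTG-1-4 and tRNA:Arg-ACG-1-1. For asparagine and glutamate they were tRNA:Asn-GTT-1-4, tRNA:Glu-CTC-3-1 and tRNA:Glu-CTC-3-5. All were named here after their values were seen. Open tyrosine and threonine genes all had covered bases. Whether the intervals stay apart without such calls was not tested.

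**Figure D4:**
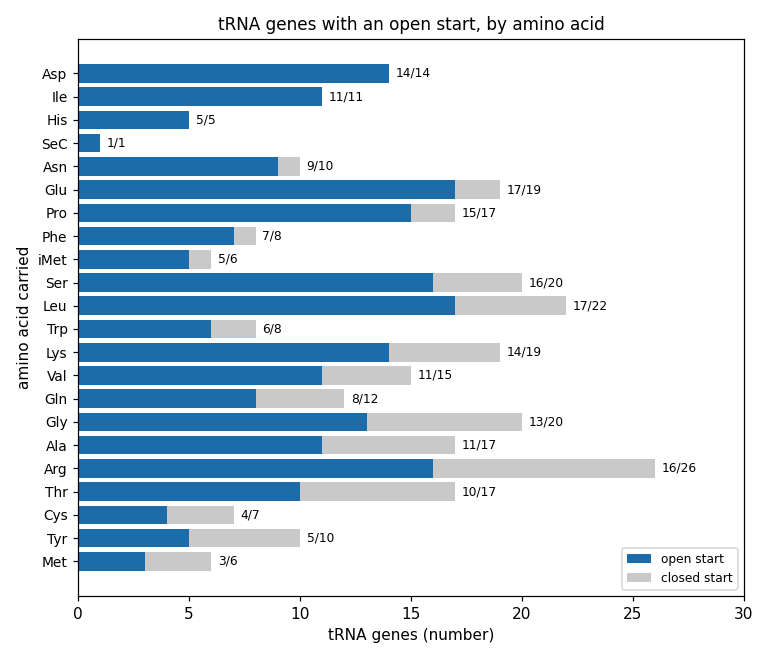
Number of tRNA genes with an open start (blue) and a closed start (grey) for each amino acid, ordered by the open share; iMet is initiator methionine and SeC selenocysteine. Aspartate (14 of 14), isoleucine (11 of 11) and histidine (5 of 5) have no closed gene, and tyrosine and elongator methionine have 50% closed.

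The number of genes followed the use of the amino acid, and the share open did not. Over 20 amino acids, the number of tRNA genes was correlated with the share of codons in 13968 protein-coding genes (Pearson r = 0.79, Spearman rho = 0.86). Both kinds of methionine were joined. The number of open tRNA genes was correlated with it too (r = 0.83, rho = 0.81). Open genes are a part of all tRNA genes, so the latter is not a separate result. For the percentage open, r was 0.07 and rho -0.03. Leucine, the most used at 9.15% of codons, had 17 of 22 genes open, and tryptophan, the least used at 1.00%, had 6 of 8. These values describe the 20 amino acids, which share 1 list of regions.

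By anticodon, 44 of 45 classes had an open gene and 14 had no closed one. The exception was the valine tRNA with anticodon TAC. Its 2 genes, tRNA:Val-TAC-1-1 and tRNA:Val-TAC-1-2 at chr3L:5356343-5356415 and chr3L:5356662-5356734, were both closed, which with 2 genes allows a share of up to 65.8%, although 10 and 12 other regions had their midpoints 1 to 10 kb away. Valine genes with the anticodons AAC and CAC were open in 5 of 6 and 6 of 7. The other anticodons with at most 2 genes were open throughout. The alanine genes tRNA:Ala-TGC-1-1 and tRNA:Ala-TGC-2-1 had the same widest region in their windows, 805 bp wide. Its midpoint lay 611 bp before the start of tRNA:Ala-TGC-1-1, where another region in the window covered the gene. The widest region was 378 bp at tRNA:Ile-TAT-1-1 and 186 and 260 bp at tRNA:Leu-TAG-1-1 and tRNA:Leu-TAG-1-2. At tRNA:Ser-TGA-1-1 and tRNA:Ser-TGA-2-1 it was 325 and 445 bp. It was 297 bp at the single selenocysteine gene tRNA:SeC-TCA-1-1, which decodes a stop codon in selenoprotein messages. Threonine TGT was open in 2 of 6, arginine TCG in 4 of 10, and alanine AGC in 6 of 12, against 3 of 3 for alanine CGC.

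Most closed genes had an open twin, in a set where 252 of 290 genes had an identical copy and 218 were open. Of the 46 mature sequences with 2 or more copies, 16 had all copies open, 3 had all copies closed and 27 had both. Accordingly 51 of the 72 closed genes shared their mature sequence with an open gene, 8 belonged to sequences whose copies were all closed, and 13 had a sequence of their own. The sequences with no open copy were Val-TAC-1, Trp-CCA-1 (2 genes) and Arg-TCG-3 (4 genes). Genes with 6 or more identical copies were open in 117 of 144 cases (81.2%, 74.1 to 86.8), those with 2 to 5 in 76 of 108 (70.4%, 61.2 to 78.2) and genes of unique mature sequence in 25 of 38 (65.8%, 49.9 to 78.8). These intervals overlapped. Within anticodons that had a multi-copy sequence, single-copy variants were open in 16 of 26 (61.5%, 42.5 to 77.6), against 186 of 241 genes of the most frequent sequence (77.2%, 71.5 to 82.0).

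The 3 largest sequence families with both states differed in where their closed copies lay. Of 13 copies of the glycine tRNA Gly-GCC-1, 9 were open, with regions of 158 to 560 bp, and the 4 closed copies were all on arm 2L between positions 14518091 and 14530616. tRNA:Gly-GCC-1-4, tRNA:Gly-GCC-1-5 and tRNA:Gly-GCC-1-6 formed 1 cluster there and tRNA:Gly-GCC-1-7 another with the closed single-copy tRNA:Gly-GCC-2-1, so that 5 neighbouring glycine genes held no region. The 3 copies of Gly-GCC-1 elsewhere on 2L and the 6 copies on 2R were open. Of 13 copies of the lysine tRNA Lys-CTT-1, 11 were open and 2 closed, tRNA:Lys-CTT-1-9 on 2R and tRNA:Lys-CTT-1-13 on 3L, each in a cluster with open copies. Of 11 copies of Ala-AGC-2, the 6 open ones were tRNA:Ala-AGC-2-1 on 3L and 5 copies on 3R within 27 kb of each other. The closed ones were tRNA:Ala-AGC-2-4, tRNA:Ala-AGC-2-5, tRNA:Ala-AGC-2-9, tRNA:Ala-AGC-2-10 and tRNA:Ala-AGC-2-11, all on 3R. Of these, tRNA:Ala-AGC-2-4 and tRNA:Ala-AGC-2-5 lay between the open copies, and the others lay beyond them.

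tRNA genes within 5 kb of each other formed 68 clusters with 214 genes, and 76 genes stood alone. Clustered genes were open in 169 of 214 cases (79.0%, 73.0 to 83.9) and single genes in 49 of 76 (64.5%, 53.3 to 74.3). The difference was 14.5 percentage points, with a 95% interval of 3.01 to 26.8 from the Newcombe method, which covers counting error only and treats genes that share regions as separate. By size, genes were open in 58 of 76 in pairs (76.3%), in 59 of 71 in clusters of 3 to 5 (83.1%), in 36 of 45 in clusters of 6 to 10 (80%) and in 16 of 22 in the 2 clusters of 11 (72.7%). Of the 68 clusters, 42 were wholly open, 7 wholly closed and 19 of both states. Neighbours whose windows overlapped differed in state in 4 of 88 pairs, which share sequence in their windows by construction. Neighbours in a cluster with separate windows differed in 23 of 58 pairs, and 28 of these pairs were both open and 7 both closed.

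**Figure D5:**
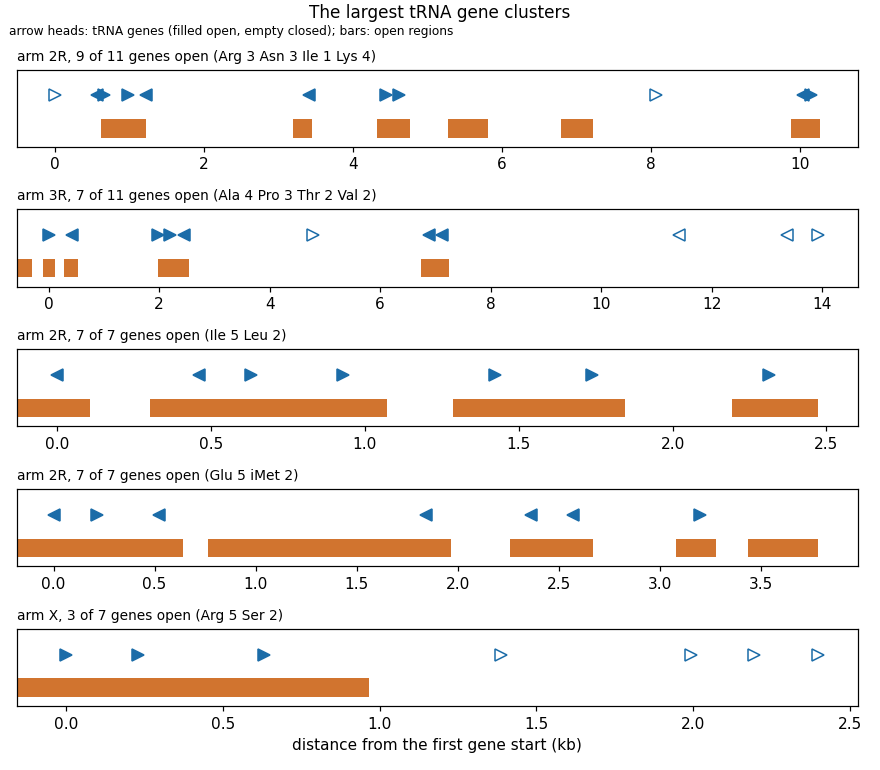
The 5 largest tRNA gene clusters by distance from the first gene start (kb). Arrow heads are tRNA genes in their direction, filled when open and empty when closed, and bars are open regions. Both 7-gene clusters on 2R are wholly open, and on X 3 of 7 genes lie over 1 region while the other 4 have none.

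The largest clusters showed these patterns gene by gene. In the 11-gene cluster at chr2R:6161535-6171687, which lies partly inside the ecdysone receptor gene EcR, 4 lysine, 3 asparagine and 1 isoleucine genes were all open (tRNA:Lys-CTT-1-2, tRNA:Lys-CTT-1-3, tRNA:Lys-CTT-1-4, tRNA:Lys-CTT-1-5, tRNA:Asn-GTT-1-4, tRNA:Asn-GTT-1-5, tRNA:Asn-GTT-1-6 and tRNA:Ile-AAT-1-1). Of its 3 arginine genes, tRNA:Arg-ACG-1-4 was open and tRNA:Arg-ACG-1-2 and tRNA:Arg-ACG-1-3 were closed. In the 11-gene cluster at chr3R:17617761-17631679, the first 5 genes were open (tRNA:Val-CAC-1-1, tRNA:Pro-TGG-1-1, tRNA:Ala-AGC-2-2, tRNA:Pro-TGG-1-2 and tRNA:Ala-AGC-2-3), and so were the threonine genes tRNA:Thr-AGT-1-5 and tRNA:Thr-AGT-1-6. Between and after them, tRNA:Ala-AGC-2-4, tRNA:Val-AAC-1-2, tRNA:Ala-AGC-2-5 and tRNA:Pro-TGG-1-3 were closed. All 7 genes at chr2R:13430355-13432668 inside ATP8A were open under 4 regions; they were tRNA:Ile-AAT-1-3, tRNA:Ile-AAT-1-4, tRNA:Ile-AAT-1-5, tRNA:Ile-AAT-1-6, tRNA:Ile-AAT-1-7, tRNA:Leu-CAA-2-1 and tRNA:Leu-CAA-1-1. At chr2R:19725691-19728887, tRNA:iMet-CAT-1-1, tRNA:iMet-CAT-1-2, tRNA:Glu-TTC-1-4, tRNA:Glu-TTC-1-5, tRNA:Glu-TTC-1-6, tRNA:Glu-CTC-2-1 and tRNA:Glu-CTC-2-2 were all open under 5 regions.

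The 7-gene cluster on X was divided in the middle. From its first start at chrX:14014814, a single region of 1124 bp held tRNA:Arg-TCG-2-1, tRNA:Ser-CGA-1-1 and tRNA:Ser-CGA-1-2. The 4 arginine genes tRNA:Arg-TCG-3-1, tRNA:Arg-TCG-3-2, tRNA:Arg-TCG-3-3 and tRNA:Arg-TCG-3-4, the last of which starts at chrX:14017212, held none. Their windows were 66.2%, 66.8%, 59.1% and 78.5% unique in 50-base sequences, and 27.0%, 13.9%, 12.6% and 49.3% when up to 2 mismatches were allowed. Reads with several alignments were dropped before regions were called, so the closed state of these 4 genes could be read only from the unique bases.

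Few other closed genes had repeated windows. Of the 290 windows, 275 were at least 80% unique in 50-base sequences, and 211 of these genes were open (76.7%, 71.4 to 81.3), against 7 of the 15 genes with less unique windows (46.7%, 24.8 to 69.9). Of the 72 closed genes, 64 had a unique window, and the median uniqueness was 93.4% in open and 93.8% in closed genes. Besides Arg-TCG-3, the closed genes without one were tRNA:Glu-CTC-3-6 and tRNA:Glu-CTC-3-7 on 3L and tRNA:Lys-TTT-2-2 and tRNA:Lys-TTT-2-3 on 3R, which were named after their values were seen. Of the 64 closed genes with a unique window, the first 30 in order of arm and start held 13 on 2L, 12 on 2R and 5 on 3L. On 2L they were tRNA:Gln-CTG-2-5, tRNA:Arg-TCT-3-1, tRNA:Arg-CCT-1-1, tRNA:Thr-AGT-1-1, tRNA:Leu-TAA-3-1, the 5 glycine genes above and the tyrosine genes tRNA:Tyr-GTA-1-2, tRNA:Tyr-GTA-1-3 and tRNA:Tyr-GTA-1-9. On 2R they were tRNA:Asn-GTT-1-1, tRNA:Arg-ACG-1-2, tRNA:Arg-ACG-1-3, tRNA:Lys-CTT-1-9, tRNA:Thr-AGT-2-1, tRNA:Thr-TGT-2-2, tRNA:Thr-TGT-2-4, tRNA:Gln-CTG-1-1, tRNA:Leu-AAG-1-4, tRNA:Trp-CCA-1-1, tRNA:Trp-CCA-1-2 and tRNA:Gly-TCC-2-1. On 3L the first 5 were tRNA:iMet-CAT-1-3, tRNA:Cys-GCA-2-1, tRNA:Lys-CTT-1-13, tRNA:Cys-GCA-1-4 and tRNA:Val-TAC-1-1.

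Arm 2R, which holds 98 of the tRNA genes, had the highest share open, 86 (87.8%, 79.8 to 92.8). The other arms were at 56 of 79 on 3R (70.9%, 60.1 to 79.8), 33 of 48 on 3L (68.8%, 54.7 to 80), 28 of 41 on 2L (68.3%, 53.0 to 80.4) and 15 of 24 on X (62.5%, 42.7 to 78.8). These 4 did not differ beyond their intervals. Against X, the difference of 2R was 25.3 percentage points (7.08 to 45.7, counting error only, between the extremes of 5 arms). Protein-coding genes did not share this order, with 48.2% open on 2R, 47.3% on 3R, 46.1% on 3L, 44.6% on 2L and 53.1% on X. On 2R both clustered genes, with 69 of 78 open, and single genes, with 17 of 20, were high. On 3R the clustered genes were open in 48 of 61 cases and the single genes in 8 of 18, on 3L in 26 of 35 and 7 of 13, on 2L in 18 of 26 and 10 of 15, and on X in 8 of 14 and 7 of 10.

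Few tRNA genes lay at a protein-coding TSS. Only 6 of the 290 starts were within 250 bp of one, and 4 of these were open (66.7%, 30 to 90.3), against 214 of the 284 others (75.4%, 70 to 80). The difference was -8.69 percentage points with an interval of -45.7 to 15.6, which 6 genes cannot narrow. The open ones were tRNA:Asp-GTC-1-3, tRNA:His-GTG-1-3, tRNA:Val-AAC-1-1 and tRNA:Gln-TTG-1-3, and the closed ones were tRNA:Tyr-GTA-1-9, whose start is 11 bp from a TSS of Ntl, and tRNA:Glu-CTC-3-7. All of these names but tRNA:Tyr-GTA-1-9 fall outside the rule for named genes and are given because the group is so small. Farther out, 20 of 26 genes were open from 250 to 500 bp, 38 of 47 from 500 to 1000 bp, 79 of 101 from 1000 to 5000 bp and 77 of 110 beyond 5000 bp. Genes whose nearest protein-coding TSS was itself open were open in 86 of 107 cases (80.4%, 71.8 to 86.8), and those whose nearest TSS was closed in 132 of 183 (72.1%, 65.2 to 78.1). Where that TSS lay within 500 bp of the gene start, the windows of both overlapped, so a single region could open both. tRNA genes inside a protein-coding gene were open in 101 of 134 (75.4%) and those outside in 117 of 156 (75%). Open and closed genes both had a median of 3 other regions 1 to 10 kb away, with quartiles of 1 to 6 in open and 1 to 4 in closed genes.

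The promoter letters within the gene separated open from closed genes little. An exact B box, GGTTCGA, was present in the last 30 bases of the mature sequence in 114 of 218 open genes (52.3%) and in 31 of 72 closed genes (43.1%). Read the other way, 78.6% of the 145 genes with an exact B box were open, 73.0% of those with 1 mismatch and 66.7% of the 30 with 2, and the intervals overlapped. The letters TGGC, 1 spelling of part of the A box, stood in the first 20 bases of 84 open genes (38.5%) and 32 closed genes (44.4%). A run of at least 4 T followed within 40 bp of the end in 217 of 218 open and 70 of 72 closed genes. The 16 genes with an intron were open in 11 cases and the 274 without one in 207.

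Motifs known from RNA polymerase II promoters were rare near tRNA genes. On either strand of the window around the start, TATCGATA, the DRE sequence, stood in 6 open (2.75%) and 0 closed tRNA genes, against 8.48% of 19275 protein-coding TSS windows. GGTCACAC, part of the motif bound by M1BP, stood in 2 open (0.917%) and 0 closed tRNA genes, against 7.40% of the protein-coding windows. GAGAGAG, which the GAGA factor binds, stood in 10 open (4.59%) and 5 closed tRNA genes (6.94%), against 9.62% of the protein-coding windows. The B box letters, by contrast, were in 56.0% of open and 47.2% of closed tRNA windows and in 4.08% of protein-coding ones. The tRNA windows hold the gene and so its own B box, so this contrast is there by construction. Each motif was counted by itself, also where matches of different motifs overlapped, and a match shows only that the letters are there.

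Of 32 symbols for RNA polymerase III subunits, its factors and processing enzymes, 25 were in the annotation, and 20 of these were open (80%, 60.9 to 91.1), against 47.8% of protein-coding genes. The 7 symbols without a match were Polr3J and Gtf3c1, Gtf3c2, Gtf3c3, Gtf3c4, Gtf3c5 and Gtf3c6 (Gtf3c symbols name subunits of TFIIIC, which binds the A and B boxes). Open were the largest subunits Polr3A and Polr3B, the TFIIIB parts Brf, Bdp1 and Trf, the repressor Maf1 with a region of 864 bp, La, which binds new polymerase III transcripts, and RNaseZ, which trims the 3′ end of the tRNA. Closed were Polr3C, Polr3G, Polr2E, Tbp and Rpp30, the last a subunit of the RNase P that trims the 5′ end. Of the other transcripts of this polymerase, the U6 gene snRNA:U6:96Aa (293 bp) and RNaseMRP:RNA (266 bp) were open, and snRNA:U6:96Ab, snRNA:U6:96Ac, both 7SL RNA genes and RNaseP:RNA were closed, which makes 2 of 7 symbols matched (28.6%, 8.22 to 64.1, an interval that includes the 41.0% of all annotated genes). Of 96 annotated 5S rRNA genes, which stand in a tandem array, 1 had a region; reads with several alignments had been dropped, and the part of this in the result was not tested. By biotype, snRNA genes were open in 46.9% of 32 cases and snoRNA genes in 15.6% of 269.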

How the data were processed

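ATAC-seq regions of basal Kc167 cells were used. The authors deposited the positions of open regions, with no score, as 1 list for 3 libraries. By the methods of the study and the notes of the submitters, reads were aligned with Bowtie 1.2.2 to dm6 without scaffolds, reads with more than 1 alignment were discarded, plus-strand reads were offset by 4 bp and minus-strand reads by 5 bp, and regions were called with MACS2 2.1.1.20160309 at a q threshold of 0.01 in each library. Regions present in at least 2 of 3 libraries were kept. The offsets suit a transposase assay, and dropping multiply aligned reads can lower the signal in near-identical tRNA copies.

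Genes were taken from Ensembl release 115 (BDGP6, version 54), on the same dm6 coordinates. Overlaps, clusters (5 kb) and uniqueness (exact 50-base sequences in each window, counted on both strands) were computed in Python 3.11.15 with numpy 2.4.6, and mismatches with bwa 0.7.19. The code was tested on simulated data. Shares have 95% Wilson intervals. No p-value was computed, because the list has no replicates. Named genes were the members of the 5 largest clusters, the 5 open genes with the widest and the 5 with the narrowest region, closed genes with a window at least 80% unique (the first 30), all genes of anticodons with at most 2 genes, and the 3 largest identical-sequence families with both states. The members and lists were chosen with earlier results of these data known. Of the polymerase III list, 1 gene is not reported here. Other windows, overlaps, width minimums, cluster and TSS distances and 1 gene per sequence were tried as alternatives.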

Additional observations from a re-analysis of the deposited data

How the results depend on the processing

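No replicate could be left out and no paired analysis was possible because the deposited list joins the 3 libraries and no test was run. The number of open tRNA genes was 208 with a window of 100 bp, 228 with 500 bp, 203 when the region had to overlap the gene itself, 195 with regions of at least 200 bp only, 212 with an overlap of at least 50 bp and 192 with the region midpoint inside the window. It was 211 of 275 genes with a unique window. It moved by over 1.5 times where fewer units were counted by construction: to 68 of 95 with 1 gene per identical gene sequence (71.6%), and to 143 of 202 when overlapping windows were merged into loci (70.8%). Clustered minus single genes stayed positive under all 11 alternatives, between 9.48 and 19.9 percentage points; with the midpoint inside the window, 9.48, the interval (-2.73 to 22.1) included 0. Near minus away from a protein-coding TSS was between -22.2 and 4.55 percentage points under the other alternatives; with a distance of 100 bp, where 1 closed gene remained near, it was -75.4. Arm 2R was highest under all 8 alternatives, by 20 to 25.4 points, and the lowest arm was X, 3L or 2L; with 1 gene per identical sequence the interval (-2.30 to 46.2) included 0. Windows at least 80% unique numbered 267 with 36-base, 278 with 75-base and 285 with 100-base sequences, and 267 with 50-base sequences and up to 2 mismatches. The list gives no read numbers, so a closed gene means that no region was called at a depth not given by it.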

Other observations

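Genes annotated as tRNA pseudogenes, which are not among the 290 genes and were looked at after the other values were seen, were open in 4 of 5 cases (80%, 95% Wilson interval 37.6 to 96.4), against 25 of the 330 genes with the biotype pseudogene, these 5 included (7.58%, 5.18 to 10.9). The regions were 346 bp wide at tRNA:Glu-CTC-5-1Psi, 146 bp at tRNA:Glu-CTC-6-1Psi, 160 bp at tRNA:His-GTG-2-1Psi and 403 bp at tRNA:Ile-AAT-2-1Psi, and tRNA:Thr-AGT-3-1Psi was closed. The regions at tRNA:Glu-CTC-5-1Psi and tRNA:His-GTG-2-1Psi were shared with the open tRNA genes tRNA:Glu-CTC-2-2 and tRNA:His-GTG-1-4, whose starts were 395 and 315 bp away. The other open pseudogenes shared no region with a tRNA gene; the nearest tRNA gene start was 684676 bp from tRNA:Glu-CTC-6-1Psi and 692 bp from tRNA:Ile-AAT-2-1Psi.

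Among the 72 closed tRNA genes, 25 had no open region within 5000 bp of the start and 23 had a region within 1000 bp that did not reach their window. The nearest protein-coding TSS lay a median of 2634 bp from open genes (quartiles 923 to 8186) and 4426 bp from closed genes (1331 to 8053).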
